A study of Saccharomyces cerevisiae with 14 samples.

Results

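The levels of 10 genes of phosphate supply and storage in Saccharomyces cerevisiae were followed over 14 arrays, out of 6094 genes on the membranes. They are PHO84 and PHO89 (phosphate transporters), SPL2 (a small regulator of phosphate uptake), PHO5, PHO3, PHO11, PHO12 and PHO8 (phosphatases), and VTC1 and VTC3 (polyphosphate synthesis). They were taken as a named list, and all 10 of 10 were found by standard or systematic name. A further 27 genes of the pathway were taken as company.

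Strain FF18984 was grown in F1, a minimal medium, or in YPD, a full medium, and each culture was divided and given no MMS (mock), 0.00125% MMS (low dose) or 0.0125% MMS (high dose) for 30 min or 1 h. Strain BY4742 was grown in YPD only and given mock treatment or the high dose for 1 h. MMS, methyl methanesulfonate, is a DNA-methylating agent. Each of the 14 conditions had 1 array, made by hybridizing 33P-labelled cDNA from total RNA to a membrane that was stripped and used again for the other doses of the same medium and time, which gives 5 membrane sets. With 1 array per condition no value has a replicate of its own. The tests below take their spread from the 4 sets of FF18984 and in part from the other genes. The SE of a gene is therefore not that of its own 4 sets alone. The labels give no full genotype for either strain.

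Yeast cells short of phosphate switch on the PHO regulon. The cyclin-dependent kinase Pho80-Pho85, restrained by its inhibitor Pho81, stops phosphorylating the transcription factor Pho4, which then stays in the nucleus and with Pho2 activates genes for phosphate uptake, scavenging phosphatases and the vacuolar machinery that handles polyphosphate. Polyphosphate is a chain of phosphate units kept in the vacuole as a reserve, made by the vacuolar transporter chaperone (VTC) complex. Because total RNA was measured from bulk cultures, fewer cells expressing a gene and less RNA per cell cannot be told apart.

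Levels below are log2 values of the background-subtracted spot intensity, divided by the array's median positive intensity, with negative values set to 0 and a pseudocount of 0.187 added; the log2 values of a gene's 2 spots were averaged and the arrays quantile normalized. The floor of this scale was near -2.4 before normalization. Quantile normalization averages values tied at the floor, so afterwards the floor differed between arrays. At 1 h it lay at -1.93 in F1 and -1.94 in YPD at the high dose, and at -2.20 in YPD at the low dose. A gene is called at or below background on an array where the mean of its 2 spots was not above the local background. The differences given for such a gene depend on the pseudocount and on the floors of the arrays. No fold is given for them. Levels of different genes are not comparable, since each spot carries its own probe.

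The arrays fell into groups by more than the treatment. Across all genes, FF18984 arrays of the same time correlated with a median Pearson r of 0.799 at 30 min and 0.834 at 1 h, whereas 30 min and 1 h arrays correlated with a median of only 0.403. The BY4742 arrays, labelled 1 h, correlated with the FF18984 30 min arrays at a median of 0.810 and with the 1 h arrays at 0.407. Between 2.58% and 33.4% of genes per array were at or below background, most on the 2 high-dose 1 h arrays of FF18984, at 31.4% in F1 and 33.4% in YPD. The YPD 30 min high-dose array had an outlying signal scale, with a median positive spot of 2.36e+06. The next highest was 9203.7, on the F1 1 h mock array. Among the highest values, spot signals and deposited processed values of that YPD array correlated with a Pearson r of 0.757. The next lowest r was 0.998, on the F1 30 min mock array. The cause was not tested, and this limits every YPD 30 min high-dose value below. Each set has its own membrane, so time, medium and membrane cannot be told apart between sets. The spot files give the same gene at each position on all 14 arrays, but whether the membranes of the FF18984 1 h sets carried those genes in those places could not be settled, and this limit holds for every level of the 1 h sets and every difference between times. As checks, RNR2, a ribonucleotide reductase subunit gene induced by DNA damage, was higher at the high dose by 2.62 ± 0.34 log2 (SE, 4 sets; limma adjusted p = 0.00974), and RNR3, another, gave 1.96 (adjusted p = 0.112). For RNR2 the high dose against mock was 2.71 in the 30 min sets alone and 2.53 in the 1 h sets alone. The mating-type markers differed between the strains: STE2, the receptor gene of MATa cells, ranged from 0.76 to 2.84 over the FF18984 arrays and was -2.15 and -1.65 on the BY4742 pair. STE3, the receptor gene of MATalpha cells, did not exceed -0.28 on any FF18984 array and was 1.90 and 1.29 on the BY4742 pair. URA3 ranged from 5.85 to 7.75 over the FF18984 arrays against 1.11 and 1.47 for BY4742, and LEU2 from -0.87 to 1.52 against -1.22 and -1.44.

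**Figure D1:**
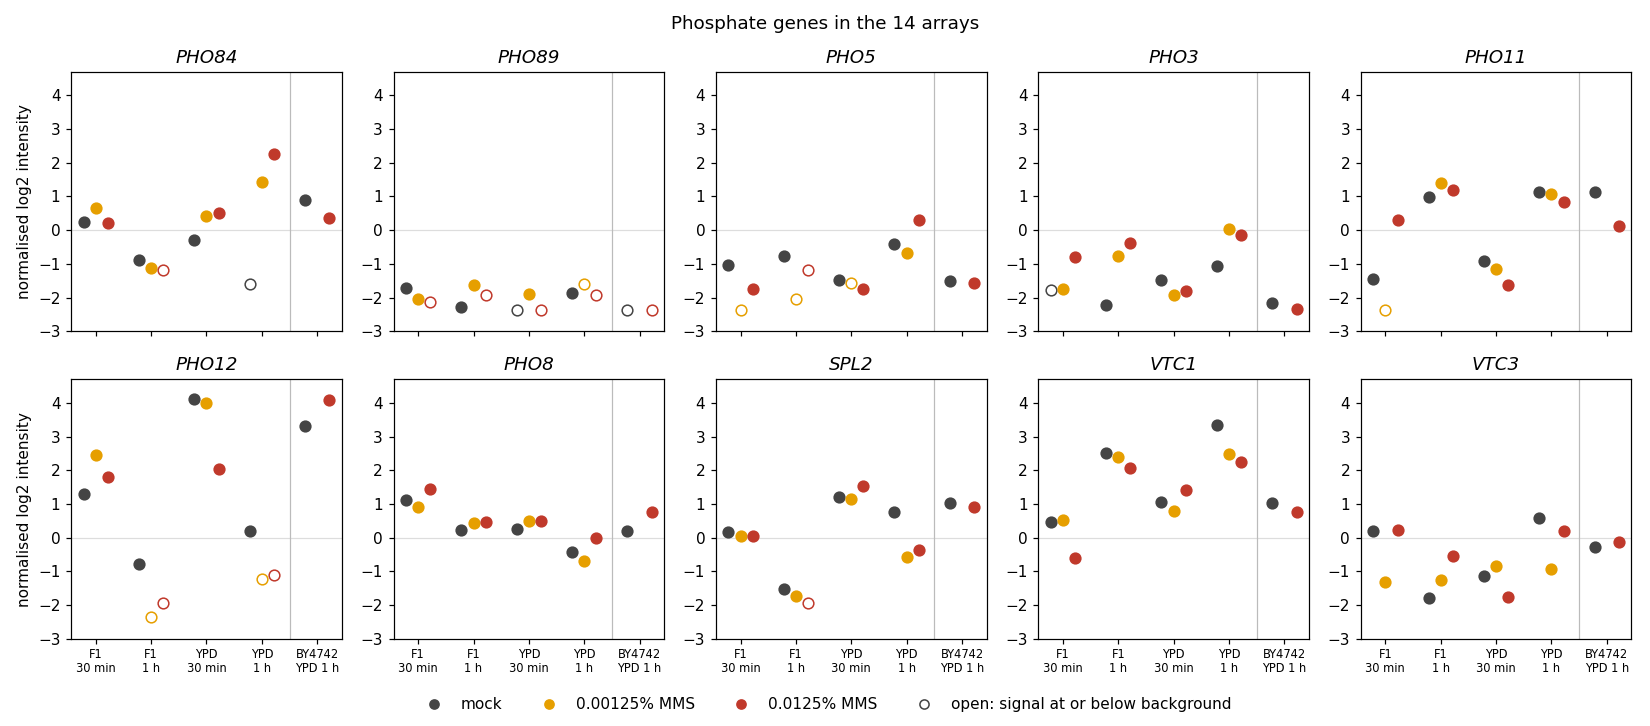
Level of each of the 10 genes (vertical axes, log2 scale) on the 14 arrays, grouped by membrane set and marked by dose, with open circles for signals at or below background. PHO84 in YPD at 1 h ran from -1.61 in the mock array to 2.28 at the high dose, and PHO11 and PHO12 sat on opposite sides of their range at 30 min and 1 h.

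PHO84 encodes the high-affinity proton-coupled phosphate transporter, the main uptake route of phosphate-starved cells. In F1 its level was 0.24 (mock), 0.66 (low) and 0.21 (high) at 30 min. At 1 h in F1 it was -0.88, -1.12 and -1.17, the last at or below background. The YPD levels were -0.28, 0.41 and 0.50 at 30 min, and -1.61, 1.42 and 2.28 at 1 h. In BY4742 it was 0.88 in the mock array and 0.37 at the high dose. The treated arrays lay furthest above mock in the YPD 1 h set, whose mock array was at or below background, and also lay above it in the YPD 30 min set. The lowest and highest of all 14 PHO84 levels were both in the YPD 1 h set.

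In the YPD 1 h set the difference from mock was 3.03 at the low dose and 3.89 at the high dose, sizes that depend on the pseudocount because the mock signal was not above background. In the other FF18984 sets the low-dose difference was 0.42 (F1, 30 min), -0.24 (F1, 1 h) and 0.69 (YPD, 30 min). The high-dose difference was -0.03, -0.29 and 0.78 in the same order, and -0.51 in BY4742. The F1 1 h high-dose signal was not above background, so the -0.29 also depends on the pseudocount and the floor. The 2 PHO84 spots of the F1 1 h low-dose array disagreed, with background-subtracted intensities of 7.1 and 165.7 (array median 251). The 2 PHO84 spots of the YPD 1 h mock array disagreed, with background-subtracted intensities of -4101 and 2483 on an array whose median positive spot was 4082. Those of the treated arrays lay close together, at 893 and 1204 for the low dose (array median 423) and 42457 and 43169 for the high dose (array median 7063). Without background correction the differences in that set were 0.50 and 0.90, and with 4 times the pseudocount they were 1.79 and 2.53. The difference in that set kept its sign under both settings, at a smaller size.

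Over the 4 sets, the high dose against mock gave 1.09 ± 0.54 for PHO84 (SE, 4 sets, limma adjusted p = 0.411). The low dose gave 0.97 ± 0.54 (limma adjusted p = 0.808), and neither passed the threshold of 0.05. By set the high-dose differences ran from -0.29 to 3.89, and an SE drawn partly from other genes does not show that spread. Between media, YPD against F1 gave 0.80 ± 0.54 (adjusted p = 0.445), with -0.16 at 30 min and 1.75 at 1 h. The high-dose difference in YPD minus that in F1 was 2.49 ± 0.93, with an unadjusted p of 0.0198 from limma over all genes and an adjusted p of 0.953. Without the YPD 1 h set that difference between media was 0.94, which still rests in part on the F1 1 h high-dose signal, not above background. The 1 h sets alone gave 4.18 and the 30 min sets alone 0.81, both without a test.

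PHO89 encodes the sodium-coupled phosphate transporter, which works at alkaline pH. Its level ran from -2.38 to -1.60, and it was at or below background on 8 of the 14 arrays, including both of BY4742. The highest value, in YPD at 1 h at the low dose, was itself at or below background. The high dose against mock gave -0.03 ± 0.26 and the low dose 0.27 ± 0.26. At a signal this close to the background, differences between doses or media were not detectable.

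SPL2 encodes a small protein that dampens low-affinity phosphate uptake when phosphate is scarce. In F1 its level was 0.16, 0.06 and 0.04 for mock, low and high dose at 30 min, and -1.53, -1.74 and -1.93 at 1 h, the last at or below background. On the YPD arrays it was 1.21, 1.15 and 1.53 at 30 min, and 0.75, -0.56 and -0.37 at 1 h. In BY4742, also in YPD, it was 1.02 and 0.92. At each time all 3 YPD arrays lay above all 3 F1 arrays.

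SPL2 was the one gene among the 10 called between media: it was higher in YPD by 1.44 ± 0.32 log2 (SE; 6 arrays against 6, in 2 sets each; limma adjusted p = 0.0157). Over all genes, 320 of 6094 (5.25%) were called, 201 of them higher (3.3%) and 119 lower (1.95%). Its mean difference was 1.21 at 30 min and 1.67 at 1 h. Without background correction it was 0.71 (adjusted p = 0.0728), and with each set reduced to its mean the same 1.44 had an adjusted p of 0.137, so the call was lost under both. In this comparison the membrane sets are the units, and p-values came out too small on simulated data that held no set effect. How small they become where sets differ was not tested.

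**Figure D2:**
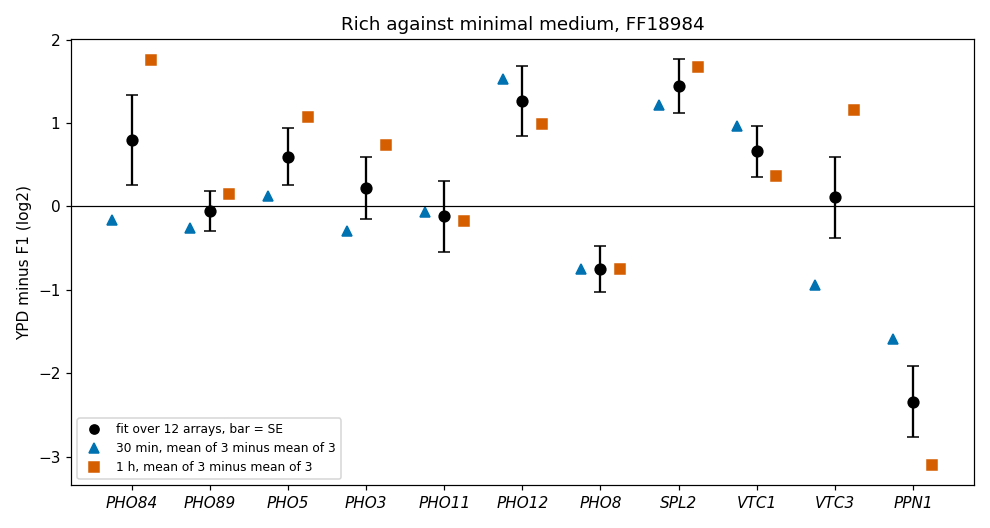
YPD minus F1 (vertical axis, log2) for the 10 genes and PPN1 in FF18984: circles are the fit over 12 arrays with bars of 1 SE, triangles and squares the mean of 3 arrays minus the mean of 3 arrays at 30 min and at 1 h. By time, SPL2 lay at 1.21 and 1.67, PHO8 at -0.75 at both times, and VTC3 at -0.94 and 1.15.

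PHO5 encodes the main repressible acid phosphatase, secreted to the periplasm. Its level in F1 was -1.04, -2.38 and -1.75 at 30 min and -0.78, -2.05 and -1.17 at 1 h for mock, low and high dose. In YPD it was -1.49, -1.58 and -1.75 at 30 min and -0.41, -0.67 and 0.30 at 1 h, and in BY4742 -1.51 and -1.57. PHO5 was at or below background on 4 of the 12 FF18984 arrays, 3 of them at the low dose. Its 2 spots differed by up to 2.77 log2 within an array, in YPD at 1 h at the low dose.

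For PHO5 the low dose against mock gave -0.74 ± 0.35 (SE, 4 sets; adjusted p = 0.768) and the high dose -0.16 ± 0.35 (adjusted p = 0.864). The low-dose difference was -1.34 and -1.27 in the F1 sets and -0.09 and -0.26 in the YPD sets, and it turned to 0.22 without background correction. YPD against F1 gave 0.60 ± 0.34 (adjusted p = 0.346), with 0.12 at 30 min and 1.07 at 1 h. At 1 h all 3 YPD arrays lay above all 3 F1 arrays, 2 of which were at or below background, whereas at 30 min the media overlapped. The share of all genes whose media did not overlap at 1 h alone was not counted.

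PHO3 encodes an acid phosphatase that lies beside PHO5, resembles it in sequence and is made when phosphate is plentiful. Its level in F1 was -1.78, -1.75 and -0.80 at 30 min and -2.23, -0.77 and -0.37 at 1 h. The YPD levels were -1.49, -1.93 and -1.80 at 30 min and -1.05, 0.03 and -0.13 at 1 h, and in BY4742 -2.17 and -2.34. In 3 of the 4 FF18984 sets PHO3 was higher at the high dose than in mock, with differences of 0.99 (F1, 30 min), 1.86 (F1, 1 h) and 0.92 (YPD, 1 h), the first against a mock array at or below background. The YPD 30 min set had -0.31 and BY4742 -0.17. How many of all genes were higher in as many sets was not counted. Over the 4 sets the high dose gave 0.86 ± 0.39 (unadjusted p = 0.0424 from limma, adjusted p = 0.353) and the low dose 0.53 ± 0.39 (adjusted p = 0.847).

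PHO11 and PHO12 encode repressible acid phosphatases that are nearly identical in sequence, so cDNA of either can bind the spots of both and their levels are uncertain as those of single genes. PHO11 in F1 was -1.45, -2.38 and 0.32 at 30 min and 0.98, 1.40 and 1.19 at 1 h. On the YPD arrays it was -0.92, -1.16 and -1.63 at 30 min and 1.13, 1.09 and 0.83 at 1 h. In BY4742 it was 1.12 and 0.13. Every FF18984 1 h array was above every 30 min array.

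PHO12 had the opposite order of times to PHO11, and the cause was not tested. Whether the 2 spots carry the same probes on the 30 min and the 1 h membranes was not tested either. In F1 the PHO12 level was 1.28, 2.47 and 1.81 at 30 min and -0.79, -2.35 and -1.93 at 1 h. In YPD it was 4.12, 3.99 and 2.03 at 30 min and 0.21, -1.21 and -1.09 at 1 h, and in BY4742 3.32 and 4.10. Every FF18984 1 h array was below every 30 min array, and 4 of the 6 were at or below background. The BY4742 arrays, labelled 1 h, had PHO12 levels inside the FF18984 30 min range of 1.28 to 4.12. For PHO11 the BY4742 mock level of 1.12 was above the FF18984 30 min range and inside its 1 h range of 0.83 to 1.40. The BY4742 high-dose PHO11 level of 0.13 was inside the 30 min range of -2.38 to 0.32.

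**Figure D3:**
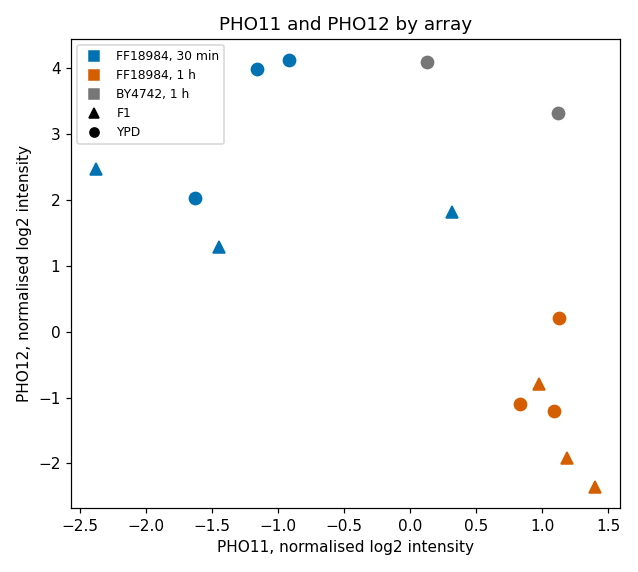
Level of PHO12 (vertical axis, log2) against that of PHO11 (horizontal axis, log2) on the 14 arrays, marked by strain and time. The 6 FF18984 1 h arrays lay between 0.83 and 1.40 on PHO11 and at or below 0.21 on PHO12. The 6 FF18984 30 min arrays lay at or below 0.32 on PHO11 and at or above 1.28 on PHO12. The 2 BY4742 arrays, mock and high dose, lay at 1.12 and 0.13 on PHO11 and at 3.32 and 4.10 on PHO12.

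Of the 10 genes, 3 had FF18984 1 h arrays that did not overlap the 30 min arrays: PHO11 and VTC1 higher at 1 h and PHO12 lower. The share over all genes was 28.4% (14.8% higher at 1 h and 13.6% lower), so the count of 3 is close to the background. Among the 27 other pathway genes 8 did not overlap. Against treatment, the high dose against mock gave -0.997 ± 0.459 for PHO12 (SE, 4 sets, unadjusted p = 0.0472 from limma, adjusted p = 0.368). By set, at 30 min it was -2.08 in YPD, where the treated array is the one with the outlying signal scale, and 0.53 in F1. At 1 h it was -1.30 in YPD and -1.13 in F1, both with treated signals at or below background. The sizes of those 1 h differences depend on the pseudocount and the floor. In BY4742 the difference was 0.77. PHO11 at the high dose gave 0.24 ± 0.47 (adjusted p = 0.848), and -0.27 without the F1 30 min set.

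For PHO12, YPD against F1 gave 1.26 ± 0.42 (adjusted p = 0.0937), with 1.53 for 30 min and 0.99 for 1 h. It passed the threshold without background correction (1.30, adjusted p = 0.0200). PHO11 differed between media by -0.12 ± 0.42 (adjusted p = 0.904).

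PHO8 encodes the vacuolar alkaline phosphatase. In F1 its level was 1.11, 0.91 and 1.45 at 30 min and 0.24, 0.43 and 0.46 at 1 h. The YPD levels were 0.24, 0.50 and 0.49 at 30 min and -0.42, -0.68 and -0.02 at 1 h, and in BY4742 0.20 and 0.77. It was above background on all 14 arrays, and at each time all 3 YPD arrays lay below all 3 F1 arrays. The mean difference between media was -0.75 at both times, or -0.75 ± 0.28 in the fit (adjusted p = 0.133), which does not pass. All 5 sets had a higher level at the high dose than in mock, by 0.22 to 0.56. Within the sets, 61.1% to 85.8% of all genes had a lower difference. The share of all genes that were higher in all 5 sets was not counted. The fit over the 4 FF18984 sets gave 0.30 ± 0.29 (limma adjusted p = 0.678), or -0.08 without background correction.

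SPL2 and PHO8 were the 2 of the 10 genes whose media did not overlap at either time with the same direction, against 7.06% of all genes. For SPL2 the YPD arrays were above (4.38% of all genes) and for PHO8 below (2.67%). Among the 27 other pathway genes 2 did so: PHM7, which was higher in YPD, and PPN1, which was lower.

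VTC1 encodes a small subunit of the VTC complex. In F1 its level was 0.48, 0.52 and -0.60 at 30 min and 2.51, 2.40 and 2.06 at 1 h. On the YPD arrays it was 1.07, 0.80 and 1.41 at 30 min and 3.34, 2.47 and 2.25 at 1 h, and in BY4742 1.02 and 0.75. It was above background throughout, and all 1 h arrays of FF18984 lay above all its 30 min arrays. At the high dose VTC1 was below mock in 4 of the 5 sets, with differences of -1.09 to -0.27, and above it by 0.35 in YPD at 30 min. The share of all genes with such a split was not counted. The fit over the 4 FF18984 sets gave -0.57 ± 0.32 for the high dose (adjusted p = 0.454) and -0.30 ± 0.32 for the low dose (adjusted p = 0.887). YPD against F1 gave 0.66 ± 0.31 (unadjusted p = 0.0476 from limma, adjusted p = 0.240).

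VTC3 encodes another subunit of the VTC complex. In F1 its level was 0.19, -1.31 and 0.22 at 30 min and -1.80, -1.27 and -0.56 at 1 h. In YPD it was -1.13, -0.84 and -1.75 at 30 min and 0.58, -0.94 and 0.19 at 1 h, and in BY4742 -0.26 and -0.11. The order of doses differed from set to set: the low-dose difference was -1.50 in F1 at 30 min and -1.52 in YPD at 1 h, and above 0 in the other 2 sets. The fits gave 0.07 ± 0.45 at the high dose and -0.55 ± 0.45 at the low dose (limma adjusted p = 0.854). For YPD against F1 the fit gave 0.11 ± 0.48. The difference between media was -0.94 at 30 min and 1.15 at 1 h.

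**Figure D4:**
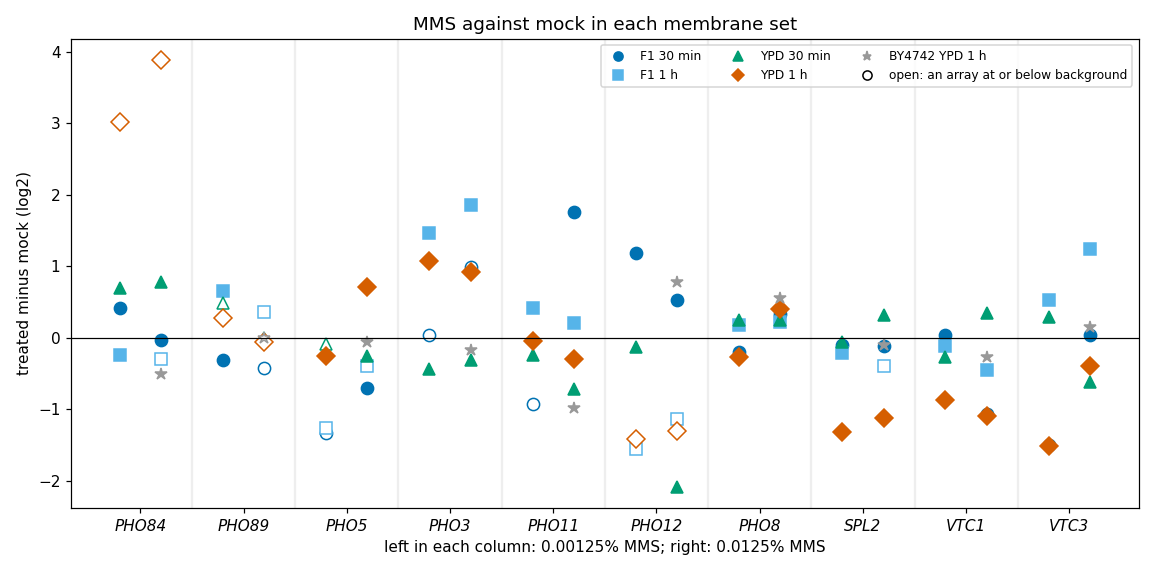
Treated minus mock (log2) for each of the 10 genes in each membrane set, with the low dose on the left and the high dose on the right of each column and open symbols where an array was at or below background. The PHO84 points of YPD at 1 h lay at 3.03 and 3.89, above every other point.

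Across the 10 genes, none was called for the high dose against mock, where 5 of 6094 genes (0.082%) were called, 3 higher (0.0492%) and 2 lower (0.0328%), and none for the low dose, where limma called 0 of 6094 (0%). At an unadjusted p under 0.05, 2 of the 10 passed at the high dose (PHO3 and PHO12) and 0 at the low dose, against 13.3% and 6.43% of all genes. The median difference of the 10 genes was 0.02 at the high dose and -0.25 at the low dose, against 0.00 for all genes in both. For the difference of the high-dose effect between media, 0 of 6094 genes (0%) were called, 4.15% had an unadjusted p under 0.05, and PHO84 was the 1 of the 10 that did. Between media the median of the 10 genes was 0.41 against -0.02 for all genes; 7 of the 10 estimates were above 0, of which SPL2 passed. At an unadjusted p under 0.05, 4 of the 10 passed between media (SPL2, PHO12, PHO8 and VTC1), against 20.4% of all genes.

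The 27 other genes of the pathway comprise transporters and their helpers, regulators, further phosphate-starvation genes, polyphosphate enzymes and inositol pyrophosphate enzymes, the last because inositol pyrophosphates signal the phosphate state of the cell. For the high dose, the low dose and the difference between media in the high-dose effect, none of the 27 passed in either direction. The 3 of smallest p at the high dose were SIW14, an inositol pyrophosphate phosphatase gene, at -1.16 (adjusted p = 0.220), VTC4, the catalytic polyphosphate polymerase subunit, at 0.99 (adjusted p = 0.260), and PHO91, a vacuolar phosphate transporter gene, at 0.87 (adjusted p = 0.281). At the low dose they were PHO4, the transcription factor, at 1.06, and VTC4 at 0.95 (both adjusted p = 0.724), and PPN2, a polyphosphatase gene, at 0.60 (adjusted p = 0.819). For the high-dose effect in YPD minus that in F1 they were PHO4 at 1.15, GDE1, a glycerophosphodiesterase gene, at -1.21, and KCS1, an inositol hexakisphosphate kinase gene, at -0.96 (all adjusted p = 0.953).

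VTC4 was above background on all 14 arrays. Its level in F1 was -1.99, -0.56 and -0.79 at 30 min and -0.06, 0.15 and -0.10 at 1 h. The YPD levels were -1.53, -0.62 and -0.33 at 30 min and -1.36, -0.12 and 0.22 at 1 h. Both doses lay above mock in 3 of the 4 FF18984 sets, and in F1 at 1 h the low dose lay above mock and the high dose below it. VTC4 was named here for its small p at both doses, so this order restates that choice. The share of all genes with such an order was not counted. On the BY4742 pair its levels were between -0.31 and -0.22. The 2 spots of the 30 min mock arrays disagreed, with background-subtracted intensities of 12.5 and 78.8 in F1 and 179.8 and -28.3 in YPD.

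Between media 1 of the 27 passed, and it was lower in YPD; over all genes 5.25% passed and 1.95% were lower, so this count is near the background. PPN1 encodes a vacuolar endopolyphosphatase, which cuts polyphosphate chains. Its level in F1 was 0.55, 0.09 and 0.42 at 30 min and 1.25, 1.82 and 1.51 at 1 h. On the YPD arrays it was -1.53, -0.52 and -1.64 at 30 min and -0.58, -2.20 and -1.94 at 1 h, 3 of these 6 at or below background. In BY4742, in YPD, it was -0.66 and -0.90. All YPD arrays lay below all F1 arrays, and the difference was -2.34 ± 0.43 (SE; 6 arrays against 6, in 2 sets each; limma adjusted p = 0.00480). With each set reduced to its mean the adjusted p was 0.00199, in a fit whose spread comes almost wholly from the other genes. Without background correction the difference was -0.43 (adjusted p = 0.285). The next 2 by p were DDP1, an inositol pyrophosphate phosphatase gene, at 0.99 (adjusted p = 0.0901), and DIA3, a gene similar to PHO3, at -0.98 (adjusted p = 0.107).

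BY4742 was compared with FF18984 in YPD as values only, since each strain had 1 array per condition. Against the FF18984 1 h arrays, PHO12 was higher in BY4742 by 3.12 in mock and by 5.19 at the high dose, the latter against an FF18984 signal at or below background. PHO84 was higher in BY4742 by 2.49 in mock, again against a signal at or below background, and lower at the high dose, at -1.90. VTC1 was lower at -2.32 and -1.49. Against the FF18984 30 min arrays the same genes differed by -0.79 and 2.06 (PHO12), 1.16 and -0.13 (PHO84) and -0.04 and -0.66 (VTC1). Which FF18984 set is used therefore changes the sign or the size, and strain and membrane cannot be told apart.

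The genes most like PHO84, PHO5 and VTC3 over the 14 arrays were looked up after subtracting each set's mean, among 2572 genes above background on every array. For PHO84 they were IKI1 (r = 0.948), ATP3 (0.941) and HOM2 (0.939), for PHO5 YNL105W (0.877), TUM1 (0.866) and BUB3 (0.850), and for VTC3 YBL005W1 (0.871), ADE3 (0.825) and YGR126W (0.790). These correlations describe 14 arrays in 5 sets, and arrays of one set share a membrane. The YPD 1 h set holds the widest spread of PHO84 and so weighs most in its 3 correlations.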

How the data were processed

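The deposited spot files hold, per the file headers, each spot's integrated intensity before and after subtraction of its local background by the authors; the image software is not given in the sources used here. The deposited series table holds processed intensity values whose steps are not stated. Each gene has 2 spots. The subtracted intensity was used: each array was divided by its median positive intensity, negative values were set to 0, log2(value + 0.187), the 10th percentile of positive scaled values, was taken, spots were averaged and arrays quantile normalized. Of 6094 ORFs, 5567 matched a current gene symbol in a RefSeq table. limma 3.58.1 in R 4.3.3 (lmFit, eBayes with trend; Benjamini-Hochberg over all 6094 genes, threshold 0.05) fitted dose with membrane set as a block in the 12 FF18984 arrays, the dose by medium interaction, and YPD against F1 with time and dose as terms and set as a random block (consensus correlation 0.0744). The fits were tested on simulated data with independent noise on each array and no set effect. In these data p-values of YPD against F1 came out too small. BY4742 and single pairs have values only. The members and gene lists were chosen with earlier results of these data known. Named are all 10 genes, other pathway genes that pass or are among the 3 of smallest p, the 3 most-like genes and the checks. Alternatives were median centring, no background correction, 4 times the pseudocount, the deposited series table, genes above background on all 12 arrays, each set left out, each time alone and set means. The number of arrays limits the precision.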

Additional observations from a re-analysis of the deposited data

Results flagged for a closer look

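The low-dose minus mock difference of SPL2 in FF18984 in YPD at 1 h was -1.32 log2, while the other 3 FF18984 sets lay at -0.10 (F1, 30 min), -0.22 (F1, 1 h) and -0.06 (YPD, 30 min). Its gap to the nearest of the others took up more of the range than Dixon's critical value for 4 values. Of 20 groups of 4 tested, 1 was picked out, and chance picks out about 1 in 20. The cause was not tested.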

How the results depend on the processing

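The count of genes called for the high dose was 5, and it was 0 with median centring, 32 with the 30 min sets alone, 12 with the 1 h sets alone and 0 to 11 with each set left out. For the difference of the high-dose effect between media it was 0, and 0 to 4 with each set left out. For YPD against F1 it was 320, and 206 without background correction and 136 with set means. Of the 10 genes, SPL2 lost its call for YPD against F1 under those same 2 settings (0.71 and 1.44), and PHO12 gained one without background correction (1.30). Among values of the 10 genes larger than their SE, signs turned without background correction for PHO8 at the high dose (-0.0768), for PHO5 (0.22), PHO12 (0.0669), SPL2 (0.0194) and VTC3 (0.20) at the low dose, and for PHO5 (-0.23) and PHO12 (0.19) in the difference of the high-dose effect between media. With the 30 min sets alone they turned for PHO3 (-0.20) and PHO12 (0.53) at the low dose and for PHO84 in YPD against F1 (-0.16); leaving out each set gave PHO84 -0.16 to 1.75 there. None of these passed the threshold where a test was run (the PHO84 values had none), and the cause was not tested. Among values within 1 SE of 0, 44 others had the opposite sign, in 14 results; 0 passed and 13 had no test. They include PHO11 at the high dose (-0.27 without the F1 30 min set), VTC1 in the difference of the high-dose effect between media (-0.64 with the 1 h sets alone), and YPD against F1 for VTC3 (-0.94) and PHO3 (-0.30) with the 30 min sets alone. Median centring moved the median of all genes in the difference of the high-dose effect between media to -0.12 from 0.02. Leaving out a set in YPD against F1, and using 1 time alone for either comparison of media, gave values without a test. In YPD against F1, leaving out either set of 1 time gave the same value as the other time alone. The counts of changed signs and the PHO84 range above therefore hold repeats and not separate checks. The labels give no replicate numbers; the dose fits paired treated and mock arrays by membrane set. Signals near background limit PHO89, PHO5 and PHO12 most.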
